A study of Mus with 6 samples.

Results

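The 9 genes Srebf1, Acly, Acss2, Acaca, Elovl1, Elovl5, Elovl6, Hacd3 and Tecr, which control, feed or extend the fatty acid chains made by fatty acid synthase, were followed in activated mouse CD4+ T cells. They were chosen by name, from what their products do and with earlier results of these data known. All 9 were found among the 10995 protein-coding genes of the deposited table. RNA-Seq had been carried out on naive CD4+ T cells from the spleen of WT mice, which were activated for 3 days with anti-CD3 at 5 μg/mL, anti-CD28 at 2 μg/mL and IL-2 at 100 U/mL. During activation the cells received an antibody that neutralizes VEGF-B, a growth factor of the VEGF family, or normal goat IgG, each at 1 μg/mL. There were 3 libraries per treatment, so that both groups share the activation and differ in the antibody, and the comparison asks what blocking VEGF-B during activation does to these transcripts. The labels do not say whether the libraries of a group came from separate mice or cultures, and p-values therefore measure the spread between these libraries, which may be technical.

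Cells that divide need fatty acids for new membranes, and they build them from acetyl-CoA. ATP citrate lyase (Acly) and the acetyl-CoA synthetase Acss2 supply cytosolic acetyl-CoA, acetyl-CoA carboxylase (Acaca) turns it into malonyl-CoA, and fatty acid synthase (Fasn) makes palmitate from both, after which an elongase (Elovl), a dehydratase such as Hacd3 and the reductase Tecr lengthen the chain at the endoplasmic reticulum. SREBP-1, the product of Srebf1, is a transcription factor that activates genes of this pathway once it has been cut from its membrane precursor, a step that its mRNA level does not report.

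Values were taken to be FPKM, that is, fragments divided by transcript length and by the total of the library. This unit was inferred from the quantification tools and from values that are not whole numbers, and levels, shares and ratios between genes rest on it. The number of reads behind them is unknown. The 6 libraries summed to between 260058 and 276622 FPKM, and over the 8816 genes whose mean reached 1 FPKM the median was 5.43 to 5.67 with anti–VEGF-B and 6.20 to 7.08 with IgG, highest in IgG replicate 2. Cd4 was at 64.0 to 74.6 FPKM in all libraries, and the 8 T cell markers together were at 544 to 585 with anti–VEGF-B and 576 to 692 with IgG. These markers did not move together. Cd3e (log2 fold change -0.51, limma adjusted p = 0.0197), Cd5 (-0.38, 0.0343) and Il2ra were lower. Cd3g (-0.43, 0.0621), Cd3d (0.10, 0.337), Cd28 (0.12, 0.254), Cd4 (0.03, 0.780) and Lck (0.0041, 0.976) were not called. Of the other lineages, both CD8 T cell markers (summed 2.29 to 4.69 FPKM), 1 of 4 B cell markers (0.665 to 1.34) and 3 of 5 myeloid markers were listed, and the myeloid sum was 3.95 to 5.11 in 5 libraries and 19.8 in IgG replicate 3. No NK cell (0 of 2) or erythroid (0 of 3) marker was listed. Il2ra, a receptor chain that T cells induce on activation, was at 51.8 to 65.7 FPKM with anti–VEGF-B, compared with 94.9 to 149.7 with IgG (log2 fold change -0.97, limma adjusted p = 0.00665), and its part in the values below was not tested.

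Of the 9 genes, Elovl5, which lengthens polyunsaturated chains, was the gene whose transcript fell with anti–VEGF-B at the deposited scaling, and none rose. This depended on the scaling between libraries: after median centring Elovl5 was not called (limma adjusted p = 0.0996) and Srebf1 was called higher (0.0326), and after quantile normalization none of the 8 tested genes was called. Acly, Hacd3, Elovl6 and Tecr had lower means with anti–VEGF-B without passing the test, and Srebf1, Acss2 and Elovl1 had ratios of means of 1.06, 1.05 and 1.03. Acaca had the lowest ratio of means, 0.518, at a level too low for the main test. In limma on log2(FPKM + 1), with Benjamini-Hochberg adjustment over the 8816 genes, 8 of the 9 were tested, 1 was lower and 0 were higher at an adjusted p under 0.05 (3 of 8 at an unadjusted p under 0.05, Acly, Elovl5 and Hacd3, all lower). Of all genes tested 23.8% were lower and 4.87% higher by the same rule. The median log2 fold change of the 8 genes was -0.18, beside -0.15 for all tested genes, and 5 of the 8 lay below 0, beside 71.2% of all genes. The 8 genes passed a filter on their mean over both groups. With no filter 1 of 9 was lower and 0 higher, beside 20.6% and 3.75% of all genes. At an unadjusted p under 0.05 there were 4 of 9, beside 4564 of all 10995 genes. For the other settings the share of all genes at an unadjusted p under 0.05 was not computed. A lower value in such bulk RNA cannot tell fewer cells of a type from less RNA per cell.

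**Figure D1:**
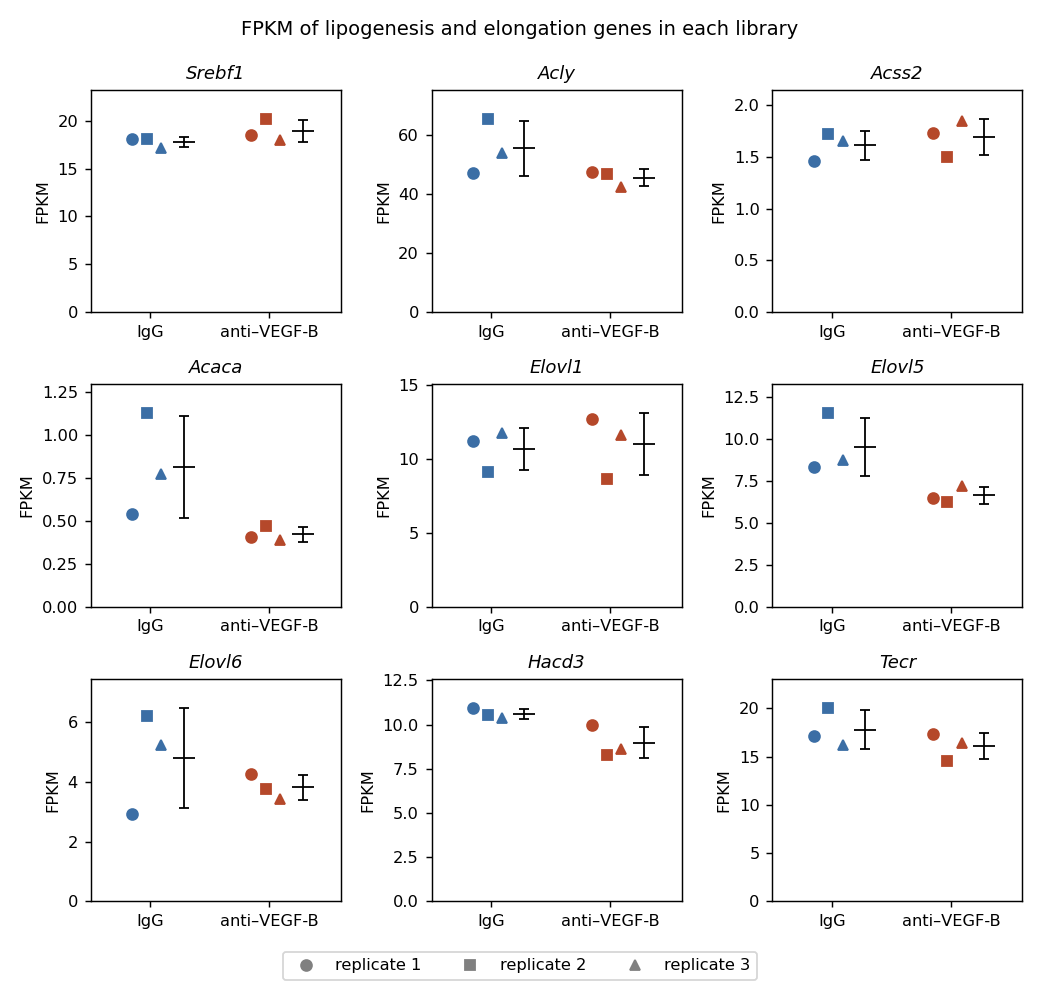
FPKM (linear axes from 0) of the 9 genes in each of the 3 IgG and 3 anti–VEGF-B libraries, with the group mean and SD as a bar and whiskers. The anti–VEGF-B libraries all lie under the IgG libraries for Acaca, Elovl5 and Hacd3, and overlap them for the other 6 genes.

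By level the genes spanned from Acly, with more FPKM than 93.5% of listed genes, through Srebf1 (81.8%), Tecr (80.4%), Elovl1 (72.3%), Hacd3 (70.3%), Elovl5 (66.5%), Elovl6 (51.7%) and Acss2 (30.0%) to Acaca (12.2%). Neighbours in this order did not all differ beyond their spread. With IgG the ranges of Srebf1 and Tecr overlapped, as did those of Elovl1, Hacd3 and Elovl5. With anti–VEGF-B the lowest Srebf1 value lay above the highest Tecr value and the lowest Hacd3 value above the highest Elovl5 value, while Elovl1 and Hacd3 still overlapped. IgG replicate 2 held the highest value of 5 of the 9 genes (Acly, Acaca, Elovl5, Elovl6 and Tecr), IgG replicate 3 held that of 0, and each other library held 1.

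Srebf1 (Ensembl ENSMUSG00000020538) spans chr11:60199089-60222581 on the minus strand of GRCm38 and shares 109 bp with Rai1 on the opposite strand. Srebf1 was at 18.5, 20.2 and 18.0 FPKM in anti–VEGF-B replicates 1 to 3 and at 18.1, 18.1 and 17.1 in IgG replicates 1 to 3. The groups overlapped, and the IgG libraries lay close together (17.8 ± 0.558 FPKM, SD, n = 3) beside 18.9 ± 1.16 with anti–VEGF-B. Its log2 fold change was 0.08 (SE 0.0790, 95% interval -0.09 to 0.26, limma adjusted p = 0.437), an interval that holds no change as well as a rise of up to 0.26 and a drop of up to 0.09 on the log2 scale. This call depended on the scaling between libraries. Centring each library on its median moved the median of all genes from -0.15 to 0.05, and Srebf1 then had a log2 fold change of 0.28 (limma adjusted p = 0.0326) and was the 1 gene of the 8 called higher, with 0 called lower, beside 15.5% of all genes higher and 9.15% lower. With quantile normalization 0 of the 8 were lower and 0 higher in limma (4 at an unadjusted p under 0.05), beside 10.4% and 9.98% of all genes, and Srebf1 was at 0.19 (limma adjusted p = 0.101).

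Srebf1 was set against Srebf2, which encodes the related factor that chiefly activates sterol genes, within each library. The scaling between libraries drops out of a plain FPKM ratio, and only approximately once 1 is added to each value. On the log2(FPKM + 1) scale Srebf1 lay below Srebf2 by 1.09 ± 0.0604 with anti–VEGF-B and by 1.34 ± 0.191 with IgG (SD, n = 3). IgG replicate 1 lay among the anti–VEGF-B libraries, so the groups overlapped. The difference was 0.25 (exact two-sided permutation test, p = 0.2, adjusted p = 0.36 over 9 pairs), where 0.1 is the smallest p that 3 libraries against 3 allow.

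Srebf2 and genes whose products hold the SREBPs in the endoplasmic reticulum, bring them to the Golgi or cut them were measured in the same libraries. Of these 6 genes all were listed and 5 tested, of which 1 was lower and 0 higher, beside 23.8% and 4.87% of all tested genes. The gene that fell was Insig1, which holds the SREBP precursor in the endoplasmic reticulum and is itself an SREBP target. It was at 10.1, 9.45 and 7.81 FPKM with anti–VEGF-B, compared with 16.2, 28.5 and 19.9 with IgG, with no overlap (log2 fold change -1.12, limma adjusted p = 0.00640). The log2 fold change of Srebf2 was -0.17 (adjusted p = 0.244), that of the escort protein gene Scap 0.0036 (0.981), that of Insig2 0.06 (0.679) and that of the site-1 protease gene Mbtps1 0.13 (0.308, and 0.33 with 0.0392 after median centring). Mbtps2, the site-2 protease gene, was under 1 FPKM and at -0.17 in the fit with no filter (adjusted p = 0.311). The median of the 5 tested genes was 0.0036, and 0.20 after median centring.

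Acly (ENSMUSG00000020917, chr11:100476353-100528000, minus strand), the enzyme that splits exported citrate, had the highest level of the 9 genes. It was at 47.7, 46.8 and 42.3 FPKM with anti–VEGF-B, compared with 47.2, 65.7 and 53.9 with IgG. IgG replicate 1 lay inside the anti–VEGF-B range, and IgG replicate 2 stood above all. The means were 45.6 ± 2.88 and 55.6 ± 9.36 FPKM (SD, n = 3), with a log2 fold change of -0.27 (SE 0.116, 95% interval -0.53 to -0.0072, limma adjusted p = 0.108). Without IgG replicate 1 it was -0.38 (adjusted p = 0.0351), and median centring brought it to -0.07 (0.622).

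Acss2 (ENSMUSG00000027605, chr2:155517948-155585724, plus strand), which makes acetyl-CoA from acetate, was far lower than Acly. It was at 1.73, 1.50 and 1.85 FPKM with anti–VEGF-B, compared with 1.46, 1.72 and 1.66 with IgG, with interleaved groups (1.69 ± 0.175 and 1.61 ± 0.140, SD, n = 3). The log2 fold change was 0.04 (SE 0.103, 95% interval -0.19 to 0.28, limma adjusted p = 0.764). In the table's coordinates Acss2 shares 22544 bp with Gss and 290 bp with Ggt7 on the opposite strand. The libraries were stranded, but the strand setting of the quantification is not given in the sources used here, so that reads of these genes may not be fully separated.

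Both sources of acetyl-CoA were also set against each other within each library. FPKM of Acly were 27.5, 31.2 and 22.9 times those of Acss2 in anti–VEGF-B replicates 1 to 3 and 32.4, 38.1 and 32.5 times in IgG replicates 1 to 3. All 3 anti–VEGF-B ratios lay under all 3 IgG ratios. On the log2(FPKM + 1) scale the ratio was 4.11 ± 0.168 against 4.43 ± 0.167 (SD, n = 3), a difference of -0.31 (exact two-sided permutation test, p = 0.1, adjusted p = 0.225 over 9 pairs).

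Acaca (ENSMUSG00000020532, chr11:84129672-84401651, plus strand), the cytosolic carboxylase that makes malonyl-CoA for synthesis and elongation alike, was at 0.406, 0.469 and 0.386 FPKM with anti–VEGF-B, compared with 0.537, 1.12 and 0.772 with IgG. Every anti–VEGF-B library was under every IgG library, and IgG replicate 1 was the nearest. The means were 0.420 ± 0.0433 and 0.811 ± 0.296 FPKM (SD, n = 3; exact two-sided permutation test, p = 0.1, the smallest possible). Since its mean over all libraries was 0.616 FPKM, Acaca was tested only in the limma fit with no filter, where it had a log2 fold change of -0.34 (SE 0.118, 95% interval -0.61 to -0.07, adjusted p = 0.0651). On this scale the pseudocount of 1 exceeds the values of all libraries but 1, and with a pseudocount of 0.1 the log2 fold change was -0.76 (adjusted p = 0.0635). Without IgG replicate 1 it was -0.45 with the pseudocount of 1 (adjusted p = 0.0261).

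The ratio of Acaca to Acly depended on the same choice. With the pseudocount of 1 it differed by -0.07 between treatments and the groups overlapped (exact two-sided permutation test, p = 0.3, adjusted p = 0.45 over 9 pairs). Taken as plain FPKM, a choice made after seeing the data, Acaca was at 0.00851, 0.0100 and 0.00912 of Acly with anti–VEGF-B and at 0.0114, 0.0171 and 0.0143 with IgG. These do not overlap and differ by -0.62 on the log2 scale (exact p = 0.1).

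Of 8 further genes of acetyl-CoA and malonyl-CoA supply, 6 were listed and 4 tested, of which 2 were lower and 0 higher, beside 23.8% and 4.87% of all tested genes. Their median log2 fold change was -0.45, and -0.25 after median centring. Both genes that fell act around lipogenesis, Mid1ip1 as a partner that activates acetyl-CoA carboxylase (-0.76, limma adjusted p = 0.0126) and Idh1 as a cytosolic source of NADPH (-0.52, 0.0110). The citrate carrier Slc25a1 was at -0.38 (0.0551) and malic enzyme Me1 at -0.28 (0.0918). Mlycd, which breaks malonyl-CoA down, was at -0.37 (0.0879) and the mitochondrial synthetase Acss1 at -0.23 (0.0513), both in the fit with no filter. All 6 lay lower with anti–VEGF-B in every library than with IgG in any. The share of all tested genes without overlap was 38.5% lower and 10.5% higher, and among the tested members it was 2 of 8 lower (Elovl5 and Hacd3, with Acaca 3 of the 9 listed) and 0 of 8 higher.

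**Figure D2:**
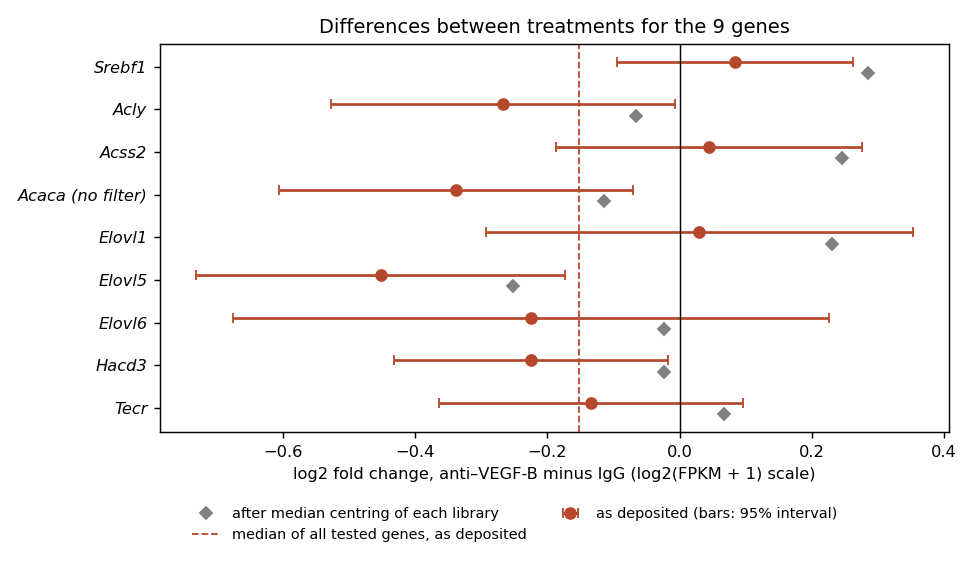
Log2 fold change of each gene between anti–VEGF-B and IgG on the log2(FPKM + 1) scale, with its 95% interval as a bar, and the value after median centring as a diamond; Acaca comes from the fit with no filter, and the dashed line is the median of all tested genes (-0.15). The interval of Elovl5 (-0.73 to -0.17) lies wholly left of the dashed line, and median centring shifts each gene to the right.

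The elongases add malonyl-CoA to an existing chain and set which chains are lengthened. Elovl1 works on saturated and monounsaturated very long chains, Elovl5 on polyunsaturated chains, and Elovl6 on the palmitate that Fasn releases. In the summed FPKM of the 4 elongases listed (these 3 and Elovl4), which was 23.1 ± 2.67 with anti–VEGF-B against 26.4 ± 1.83 with IgG (SD, n = 3), Elovl1 had the largest share in 5 of the libraries and Elovl5 in IgG replicate 2.

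Elovl5 (ENSMUSG00000032349, chr9:77917364-77984519, plus strand) was at 6.52, 6.24 and 7.23 FPKM with anti–VEGF-B, compared with 8.36, 11.6 and 8.77 with IgG. The groups did not overlap, and IgG replicate 2 stood highest. The means were 6.66 ± 0.508 and 9.56 ± 1.74 FPKM (SD, n = 3), a ratio of 0.697, and the log2 fold change was -0.45 (SE 0.124, 95% interval -0.73 to -0.17, limma adjusted p = 0.0267; exact two-sided permutation test, p = 0.1). The call was lost after median centring (-0.25, adjusted p = 0.0996), quantile normalization (-0.28, 0.0950) and when the variance was not moderated across genes (0.116). It was also lost when IgG replicate 2 (-0.32, 0.0586) or any 1 of the anti–VEGF-B replicates was left out (0.0690 for replicate 1, 0.0761 for 2 and 0.0550 for 3).

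Elovl1 (ENSMUSG00000006390, chr4:118428093-118432953, plus strand) was at 12.7, 8.65 and 11.6 FPKM with anti–VEGF-B, compared with 11.2, 9.07 and 11.7 with IgG. Replicate 2 was the lowest in both groups and the groups overlapped throughout. The log2 fold change was 0.03 (SE 0.143, 95% interval -0.29 to 0.35, limma adjusted p = 0.888), and its sign changed without anti–VEGF-B replicate 1 (-0.07), anti–VEGF-B replicate 3 (-0.02) or IgG replicate 2 (-0.07). Elovl1 shares 53 bp on the opposite strand with Cdc20, a mitotic regulator, which was at 2.18 to 2.77 FPKM with anti–VEGF-B, compared with 4.13 to 4.63 with IgG.

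Elovl6 (ENSMUSG00000041220, chr3:129532355-129638495, plus strand) was at 4.26, 3.74 and 3.44 FPKM with anti–VEGF-B, compared with 2.94, 6.21 and 5.23 with IgG. IgG replicate 1 was the lowest library of all and the other two IgG libraries the highest, so that IgG varied by 35.0% of its mean beside 10.8% with anti–VEGF-B. The log2 fold change was -0.22 (SE 0.200, 95% interval -0.67 to 0.23, limma adjusted p = 0.410). It was -0.48 without IgG replicate 1 (adjusted p = 0.0275) and -0.04 without IgG replicate 2.

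The ratio of Elovl5 to Elovl1 within a library lay lower with anti–VEGF-B. FPKM of Elovl5 were 0.515, 0.722 and 0.622 times those of Elovl1 with anti–VEGF-B and 0.745, 1.27 and 0.749 times with IgG, without overlap, though anti–VEGF-B replicate 2 came close to IgG replicates 1 and 3. On the log2(FPKM + 1) scale the ratio differed by -0.48 (-0.63 ± 0.224 against -0.15 ± 0.404, SD, n = 3; exact two-sided permutation test, p = 0.1, adjusted p = 0.225 over 9 pairs). When each library was left out in turn the difference was -0.60 to -0.25. It was smallest, at -0.25, without IgG replicate 2, the library with the ratio of 1.27. As a share of the summed elongase FPKM, Elovl5 made up 25.6, 30.9 and 30.5% with anti–VEGF-B and 34.3, 41.4 and 32.5% with IgG (exact p = 0.1). Elovl1 made up 47.2 ± 3.82% and 40.6 ± 7.14%, Elovl6 16.6 ± 2.01% and 17.9 ± 5.26%, and Elovl4 7.26 ± 1.08% and 5.42 ± 2.02% (SD, n = 3), each with overlapping groups.

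**Figure D3:**
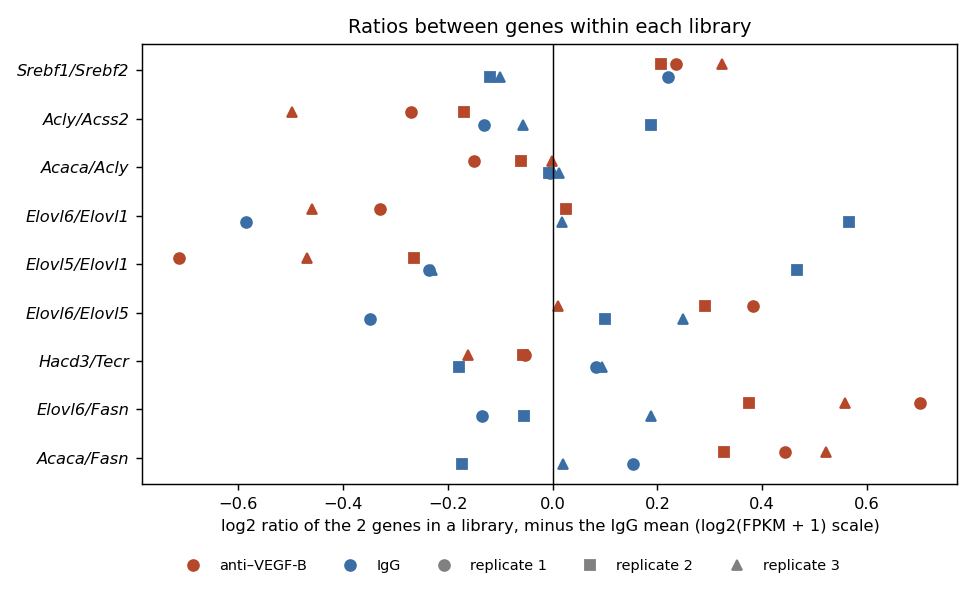
Log2 ratio of 2 genes within each library (log2(FPKM + 1) scale), after subtracting the mean of the IgG libraries, for 9 pairs; red points are anti–VEGF-B, blue points IgG, and the shape gives the replicate number. Acly/Acss2 and Elovl5/Elovl1 lie lower and Elovl6/Fasn and Acaca/Fasn higher with anti–VEGF-B in all libraries, and the shift of Acaca/Fasn is 0.0232 with no pseudocount.

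The ratio of Elovl6 to Fasn, the enzyme that makes the chains, lay higher with anti–VEGF-B. Elovl6 itself did not rise (log2 fold change -0.22, limma adjusted p = 0.410). The higher ratio therefore restates the fall of Fasn, which the paper had already named in these data. Fasn was at 3.79, 4.42 and 3.47 FPKM with anti–VEGF-B, compared with 5.40, 10.1 and 7.10 with IgG (log2 fold change -0.77, limma adjusted p = 0.0170). FPKM of Elovl6 were 1.12, 0.847 and 0.991 times those of Fasn with anti–VEGF-B and 0.544, 0.615 and 0.736 times with IgG, with no overlap. The log2 ratio differed by 0.54 (-0.02 ± 0.164 against -0.57 ± 0.168, SD, n = 3; exact two-sided permutation test, p = 0.1, adjusted p = 0.225 over 9 pairs), and by 0.47 to 0.64 when each library was left out in turn.

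The ratio of Acaca to Fasn depended on the pseudocount. In plain FPKM it was at 0.107, 0.106 and 0.111 of Fasn with anti–VEGF-B and at 0.0993, 0.111 and 0.109 with IgG, with interleaved groups and a log2 difference of 0.0232 beside SDs of 0.0365 and 0.0873 (exact two-sided permutation test, p = 0.9). With the pseudocount of 1, which weighs on Acaca far more than on Fasn, the difference was 0.43 with no overlap (exact p = 0.1), and with 0.1 it was 0.13. The remaining pairs overlapped, with Elovl6/Elovl1 at -0.25 (exact p = 0.7) and Elovl6/Elovl5 at 0.23 (exact p = 0.4). Of the 9 pairs 4 did not overlap with the pseudocount of 1, and no adjusted p was under 0.225. Elovl6/Fasn and Acaca/Fasn, both among the 4, share Fasn and are not separate results. In plain FPKM Acaca/Fasn overlapped and Acaca/Acly did not. The share of non-overlapping pairs among all genes was not computed.

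Hacd3 and Tecr serve the later steps of each round of elongation, removal of water and the last reduction. Hacd3 (ENSMUSG00000033629, chr9:64986983-65021693, minus strand) was at 9.96, 8.30 and 8.65 FPKM with anti–VEGF-B, compared with 10.9, 10.5 and 10.4 with IgG. All IgG libraries lay above all anti–VEGF-B libraries, with the smallest spread of the 9 genes in IgG (2.69% of the mean). The means were 8.97 ± 0.878 and 10.6 ± 0.285 FPKM (SD, n = 3), and the log2 fold change was -0.22 (SE 0.0921, 95% interval -0.43 to -0.02, limma adjusted p = 0.0929; exact two-sided permutation test, p = 0.1). After median centring it was -0.02.

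Tecr (ENSMUSG00000031708, chr8:83571698-83607971, minus strand) was at 17.3, 14.6 and 16.4 FPKM with anti–VEGF-B, compared with 17.2, 20.0 and 16.2 with IgG. The groups overlapped, with IgG replicate 2 the highest and anti–VEGF-B replicate 2 the lowest. The log2 fold change was -0.13 (SE 0.102, 95% interval -0.36 to 0.10, limma adjusted p = 0.335), and it was 0.07 after median centring. The ratio of Hacd3 to Tecr within a library differed by -0.09 (exact two-sided permutation test, p = 0.4).

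Of 8 further genes of the elongation complex, 4 were listed and tested. In limma 0 were lower and 0 higher, beside 23.8% and 4.87% of all tested genes. At an unadjusted p under 0.05 there was 1, beside 3806 of all 8816 genes. That gene was Hsd17b12, the reductase of the second step, at 8.53, 7.33 and 4.35 FPKM with anti–VEGF-B, compared with 10.2, 8.47 and 11.2 with IgG (log2 fold change -0.54, adjusted p = 0.0677). The groups met at anti–VEGF-B replicate 1 and IgG replicate 2. The dehydratases Hacd1 and Hacd2 were at -0.17 (adjusted p = 0.233) and 0.0014 (0.994) and Elovl4 at 0.16 (0.419), and the median of the 4 was -0.08. Elovl2, Elovl3, Elovl7 and Hacd4 were not analysed here.

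Genes that make fatty acid chains or put double bonds into them, with the sphingolipid desaturase Degs1, were followed in the same libraries. Of 8 genes of fatty acid synthesis and desaturation, 6 were tested and 5 were lower and 0 higher, beside 23.8% and 4.87% of all tested genes. The paper had already named these 5 as downregulated in the same RNA-Seq data, so their count is no separate finding. The median log2 fold change of the 6 tested genes was -0.68, and -0.48 after median centring. The tested gene not called was Degs1 (-0.0097, limma adjusted p = 0.985), with overlapping groups. The genes that fell were Fasn, the stearoyl-CoA desaturases Scd1 (-0.72, limma adjusted p = 0.00975) and Scd2 (-0.65, 0.00756), which put in the first double bond, and Fads1 (-0.64, 0.00899) and Fads2 (-0.82, 0.0136), which desaturate the polyunsaturated chains that Elovl5 lengthens. Scd2 was the most abundant of them, with a mean of 255 ± 22.9 FPKM under anti–VEGF-B against 403 ± 58.3 under IgG (SD, n = 3). Fads1 was at 1.26 ± 0.0631 and 2.53 ± 0.491 FPKM. Fads2 was at 0.683 ± 0.270 and 2.00 ± 0.716 FPKM, so it reached the filter of 1 FPKM only through the IgG libraries. With no filter 5 of the 8 genes were lower, beside 20.6% of all genes. After median centring 5 were lower, beside 9.15% of all tested genes, and after quantile normalization 4, beside 10.4%. The call lost under quantile normalization was that of Fads2 (adjusted p = 0.0547).

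Of 12 regulators of lipogenesis 9 were tested, with 2 lower and 0 higher, beside 23.8% and 4.87% of all tested genes. The median was -0.06, and 0.14 after median centring. Those that fell were Prkaa1 (-0.46, limma adjusted p = 0.0128) and Prkag1 (-0.47, 0.0200), subunits of AMPK, the kinase that inhibits acetyl-CoA carboxylase. Prkab1, another AMPK subunit gene of the list, did not fall (0.05, limma adjusted p = 0.675). It was called higher after median centring (0.25, 0.0396). Prkag1 was no longer called after median centring (adjusted p = 0.0767), nor Prkaa1 after quantile normalization (0.0673). After median centring 1 was lower and 3 were higher, beside 9.15% and 15.5% of all tested genes. Of 21 genes of sterol synthesis and uptake, which SREBPs also activate, 19 were tested, with 9 lower and 0 higher, beside 23.8% and 4.87% of all tested genes, and a median of -0.38. After median centring 8 were lower and 3 higher, beside 9.15% and 15.5%, and the median was -0.18. Among those that fell were Hmgcs1 (-1.37, limma adjusted p = 0.00670), Cyp51 (-1.43, 0.00670) and Acat2 (-0.76, 0.00714), which encode enzymes of sterol synthesis. With no moderation of the variance 12 of all tested genes were called, and 0 in any of these lists.

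**Figure D4:**
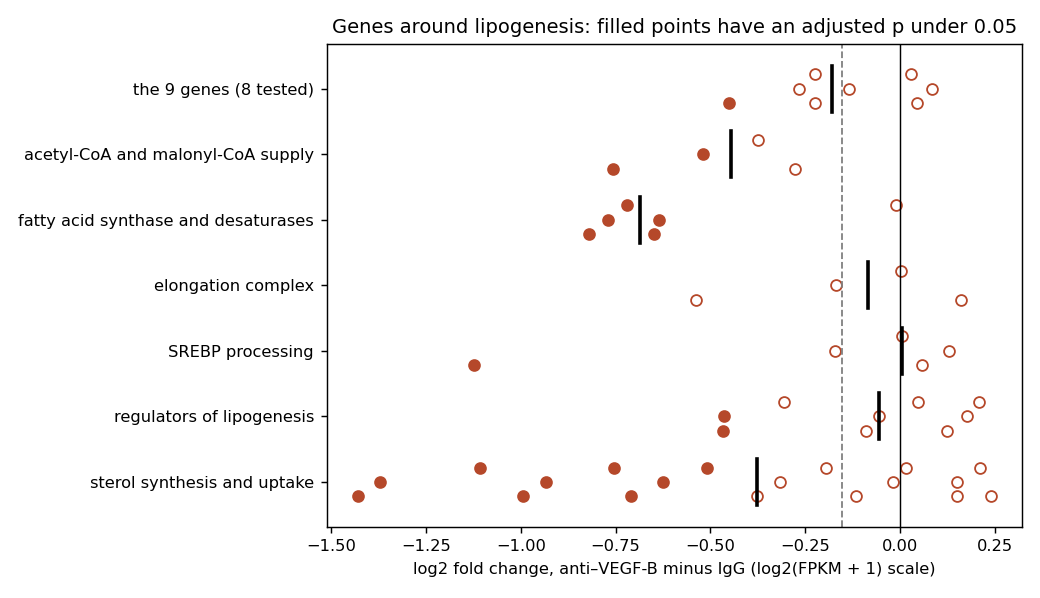
Log2 fold change of each tested gene (log2(FPKM + 1) scale) for the 9 genes and 6 lists of the surrounding pathway; filled points have a limma adjusted p under 0.05, black bars are list medians and the dashed line is the median of all tested genes. The medians run from -0.68 for fatty acid synthase and desaturases to 0.0036 for SREBP processing, with -0.18 for the 8 tested of the 9 genes, and all filled points lie left of 0.

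As a description over the 6 libraries, which share the treatment and the scaling, the transcripts most like Srebf1 in pattern were Nrn1l (Pearson r = 0.973), Taf9 (0.968) and Fbxw4 (0.965), and 9 genes reached 0.95. The pattern of Elovl5 was common. Tmem167 (0.997), Add3 (0.996) and Ezh1 (0.995) were the nearest, and 360 genes reached 0.95.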

How the data were processed

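RNA was measured in 3 anti–VEGF-B and 3 IgG libraries of activated CD4+ T cells. The authors aligned reads of stranded libraries to GRCm38 (mm10) with hisat2, quantified with StringTie and Ballgown, and deposited FPKM of protein-coding genes in 1 table. The table is named as raw data, but it holds fractional values, which were taken as FPKM, so that no count model was used. No scaling between libraries is stated, depth is unknown, and among genes under 0.3 FPKM at most 0.935% shared a ratio between libraries, so that whole reads were not recovered. All 6 columns were matched by their labels.

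Genes whose mean reached 1 FPKM were tested as log2(FPKM + 1) in limma 3.58.1 (R 4.3.3, trended empirical Bayes), in 1 fit of the 6 libraries with Benjamini-Hochberg adjustment and a threshold of 0.05. Fold changes on this scale understate those of low genes. Ratios within libraries were compared by exact permutation (scipy 1.17.1). Alternatives changed the scaling, pseudocount, filter, moderation, replicate block and libraries included. Taking the pair ratios with no pseudocount, and the counts of the pathway lists under each alternative, were added after seeing the data. The limma fit was tested on simulated data with independent values and no shift between whole libraries. That test therefore does not address how the calls depend on the scaling. Coordinates are those of the deposited table.

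Named were the 9 genes, Fasn, up to 4 called genes per list with the lowest adjusted p, all listed genes of the supply, SREBP and elongation lists, and the 3 genes most like Srebf1 and Elovl5. The T cell markers, Prkab1, Usf1, Usf2, Degs1 and genes overlapping a member were named outside this rule. Of the genes under this rule, 1 is not reported here. The members and lists were chosen with earlier results of these data known.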

Additional observations from a re-analysis of the deposited data

How the results depend on the processing

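Most of the values are small beside the spread of 3 libraries, and with depth unknown the counting error behind low genes such as Acaca cannot be given. Of the 8 genes tested 1 was called, but 0 with quantile normalization (4 at an unadjusted p under 0.05) and 0 with no moderation (2), and it ran from 0 to 3 when each library was left out, with 3 (Acly, Elovl5 and Elovl6) without IgG replicate 1. Acaca, outside this count, also passed without that library in the fit with no filter (adjusted p = 0.0261). Elovl5 was called with a pseudocount of 0.1, with no filter and with a mean of at least 5 FPKM. Its log2 fold change was -0.28 with quantile normalization, -0.25 with median centring, -0.45 with no moderation (where its adjusted p was 0.116) and -0.53 to -0.32 over the libraries left out. Srebf1 became called higher with median centring (0.28), and Tecr turned to 0.0665 under it. Leaving out libraries gave -0.38 to -0.14 for Acly, -0.45 to -0.22 for Acaca, -0.48 to -0.0440 for Elovl6 and -0.0732 to 0.18 for Elovl1. The last was below 0 on leaving out anti–VEGF-B replicate 1 (-0.0732), anti–VEGF-B replicate 3 (-0.0159) or IgG replicate 2 (-0.0728). The median of the tested genes was -0.0204 with quantile normalization, 0.0213 with median centring and -0.24 to -0.0616 over the libraries left out, the last without IgG replicate 2. The Acaca/Acly ratio differed by -0.49 with a pseudocount of 0.1 and -0.62 with none, and Acaca/Fasn by 0.13 and 0.0232. Of all genes 2528 were called, beside 12 with no moderation, 1331 with a mean of at least 5 FPKM and 859 to 2467 over the libraries left out (lowest on dropping anti–VEGF-B replicate 3, with 1359 on dropping IgG replicate 2 and 1679 on dropping anti–VEGF-B replicate 1). The causes were not tested, beyond fewer genes being tested at the stricter filter.

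Libraries of the same replicate number did not deviate together from their group means (correlations -0.03, 0.11 and 0.09), and 1 of 3 anti–VEGF-B libraries correlated best with its own number, so that the numbers were not taken as pairing. With the replicate number as a block Elovl5 had an adjusted p of 0.0386 in limma, 1 of the genes was called, and no other member changed its call.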
